A study of Homo sapiens with 20 samples.

Results

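The liver-enriched transcription factors were followed through the differentiation of HepaRG cells, a human hepatoma-derived line whose progenitors give rise to hepatocyte-like and biliary-like cells. The members were 9 genes, namely HNF4A and HNF4G, CEBPA, the forkhead genes FOXA1, FOXA2 and FOXA3, the cut-homeobox genes ONECUT1 and ONECUT2, and PROX1. Every probe whose transcript accession maps to one of these symbols was taken, which gave 10 of the 42405 probes on the array and 9 of the 35372 genes and transcripts they stand for. HNF4G had 2 probes and each of the other members had 1. The rule takes these genes by name and uses no value from the arrays, but the names were chosen with earlier results of these data known.

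Total RNA was hybridised to 20 Agilent one-colour arrays, 4 for each of 5 conditions, all from the single HepaRG line grown in the same William's E medium with serum, insulin, hydrocortisone, penicillin and streptomycin. D4 were proliferating progenitors at day 4 after seeding, D15 were confluent, committed cells at day 15, and both were collected without dimethyl sulfoxide (DMSO). D30 − DMSO cells stayed in the same medium until day 30, whereas D30 + DMSO cells received 2% DMSO from day 15 to day 30. D34 ± DMSO cells had the same DMSO course and were then kept without it for 4 further days, until day 34. No other cells were taken at day 34, so DMSO removal and 4 more days in culture cannot be told apart. Each array measures a whole culture, so fewer cells of a type and less RNA per cell cannot be told apart.

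Hepatocyte identity is held by a network of DNA-binding factors that activate one another and share target promoters. HNF4α, the nuclear receptor encoded by HNF4A, is its best known hub in the adult liver. C/EBPα, from CEBPA, is a bZIP factor of quiescent hepatocytes, and the FOXA proteins open compacted chromatin at liver enhancers from the endoderm stage on. HNF6, encoded by ONECUT1, and its relative ONECUT2 act in early liver and bile duct development, and PROX1 is a homeodomain protein of hepatoblasts that also binds HNF4α as a corepressor.

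Since the members are described as activating one another, the letters just upstream of their start sites were searched for short forms of the motifs bound by members, with the TATA box beside them. RefSeq promoters (GRCh38.p14) of 6 members were searched, 7 in all because HNF4A has 2 starts. The 250 bases before each start were read on both strands. HNF4G was left out of the search, and FOXA2 and PROX1 had no promoter at hand. The ONECUT motif ATTGATT was found in 1 of the 7, the upstream HNF4A start, against 1.98% of 35116 promoters. TATAAA was found in 2, those of CEBPA and FOXA3, against 10.7% of promoters. None of the 7 held the FOXA motif TGTTTAC, the C/EBP motif TTGCNNAA or the HNF4 motif CAAAGTCCA, which were present in 2.98%, 9.05% and 0.325% of promoters. No window held more than 1 match. The 3 windows with a match are printed with that of ONECUT1, the member that changed most, and capitals mark the match, which starts 34 bases before the start site in HNF4A and 30 bases before it in CEBPA and FOXA3. They lie at chr20:44355449-44355698 on the plus strand (HNF4A), chr19:33302535-33302784 on the minus strand (CEBPA), chr19:45864076-45864325 on the plus strand (FOXA3) and chr15:52790337-52790586 on the minus strand (ONECUT1).
HNF4A upstream start: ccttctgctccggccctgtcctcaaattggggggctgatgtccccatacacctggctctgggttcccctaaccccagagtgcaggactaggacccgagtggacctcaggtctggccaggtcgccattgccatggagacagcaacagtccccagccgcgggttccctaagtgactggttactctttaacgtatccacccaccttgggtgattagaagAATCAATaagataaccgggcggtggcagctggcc
CEBPA: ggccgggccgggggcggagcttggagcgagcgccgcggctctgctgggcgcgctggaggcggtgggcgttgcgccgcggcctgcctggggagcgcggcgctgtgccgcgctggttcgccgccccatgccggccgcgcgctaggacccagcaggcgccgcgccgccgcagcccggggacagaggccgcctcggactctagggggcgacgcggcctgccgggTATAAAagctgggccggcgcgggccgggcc
FOXA3: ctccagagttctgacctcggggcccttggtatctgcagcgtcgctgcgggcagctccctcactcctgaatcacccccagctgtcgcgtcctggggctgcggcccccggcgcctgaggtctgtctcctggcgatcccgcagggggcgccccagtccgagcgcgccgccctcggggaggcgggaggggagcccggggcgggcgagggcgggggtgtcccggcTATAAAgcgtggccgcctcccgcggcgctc
ONECUT1: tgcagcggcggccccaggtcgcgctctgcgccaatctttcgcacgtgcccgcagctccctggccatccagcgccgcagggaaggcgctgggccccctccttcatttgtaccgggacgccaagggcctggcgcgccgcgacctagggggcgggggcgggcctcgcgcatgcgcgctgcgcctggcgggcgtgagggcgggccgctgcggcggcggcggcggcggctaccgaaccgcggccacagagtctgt
Their GC content was 58.4% for HNF4A, 81.2% for CEBPA, 75.2% for FOXA3 and 76.8% for ONECUT1, against a median of 58.0% over all promoters. The HNF4A probe carries a single transcript accession, and which of the 2 starts its signal covers was not settled, so the HNF4A values may not stand for transcripts from both.

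Signals are given scaled, as Agilent's processed signal after each array was brought to a common 75th percentile of 371, and levels as log2 of that signal over the percentile, so that 0 is the 75th percentile of an array. A probe brighter than another does not stand for a more abundant transcript. Levels are compared only within a gene, except where the signals of a marker list are summed. To be tested, a probe had to exceed its background clearly (the scanner software's flag, here "well above background") in all 4 replicates of some condition. That left 22069 genes with 8 members, since neither HNF4G probe passed. No member probe was saturated on any array. Between 61.1% and 74.2% of the spots of an array were well above background, replicates correlated with r between 0.955 and 0.992, and the arrays lie on 4 slides scanned in 2 sessions. Slide 4, the slide of the second session, holds replicate 4 of every condition and replicate 3 of D15 and D30 + DMSO, and with condition means removed, arrays that shared a slide had a median correlation of 0.38 and those on separate slides -0.17. The p-values measure the spread between 4 replicates, which the study's methods give as biological. The 9 hepatocyte markers, secreted plasma proteins such as ALB and TTR, are part of the list of known targets followed below. All 9 rose from D4 to D15, with a median log2 difference of 5.05. AFP and IGFBP1, secreted proteins of the same list, are not among the 9 and were not called. COL1A2, COL3A1, PDGFRB, PECAM1 and VWF, markers of mesenchymal and endothelial cells, did not pass the filter. Of the 3 mesenchymal and blood cell markers that did, COL1A1 was called lower at D15 (-1.93), CD68 was called higher (1.39) and PTPRC was not called.

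From D4 to D15, when progenitors commit without any DMSO, 7 of the 8 members tested rose and none fell. HNF4A, FOXA3 and PROX1 passed the filter only through conditions after D4, so for them the filter itself favoured a rise. ONECUT1 rose 16.5-fold, CEBPA 6.35-fold, FOXA3 2.83-fold, FOXA1 2.60-fold and ONECUT2 2.03-fold. PROX1 rose as well, by a size that is loosely held because 1 of its 4 D4 arrays was well above background. HNF4A went from no array above background to all 4. It was 2.24-fold higher when its D4 arrays were set at the lowest signals called above background there. FOXA2 was the member that did not pass, with a log2 difference of 0.14 (SE 0.16, adjusted p = 0.638). A gene was called when limma's moderated test over all 20 arrays gave a Benjamini-Hochberg adjusted p under 0.005 with a change over 2-fold, the limits of the study's methods. Of all genes tested, 9.54% were called in this comparison and 5.71% were called higher. In the 7 members the groups did not overlap, as in 24.1% of all genes. Across the 5 conditions together, where the limits are a Bonferroni p under 0.001 and over 3-fold, 5.36% of all genes passed and 3 members did, CEBPA, HNF4A and ONECUT1.

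**Figure D1:**
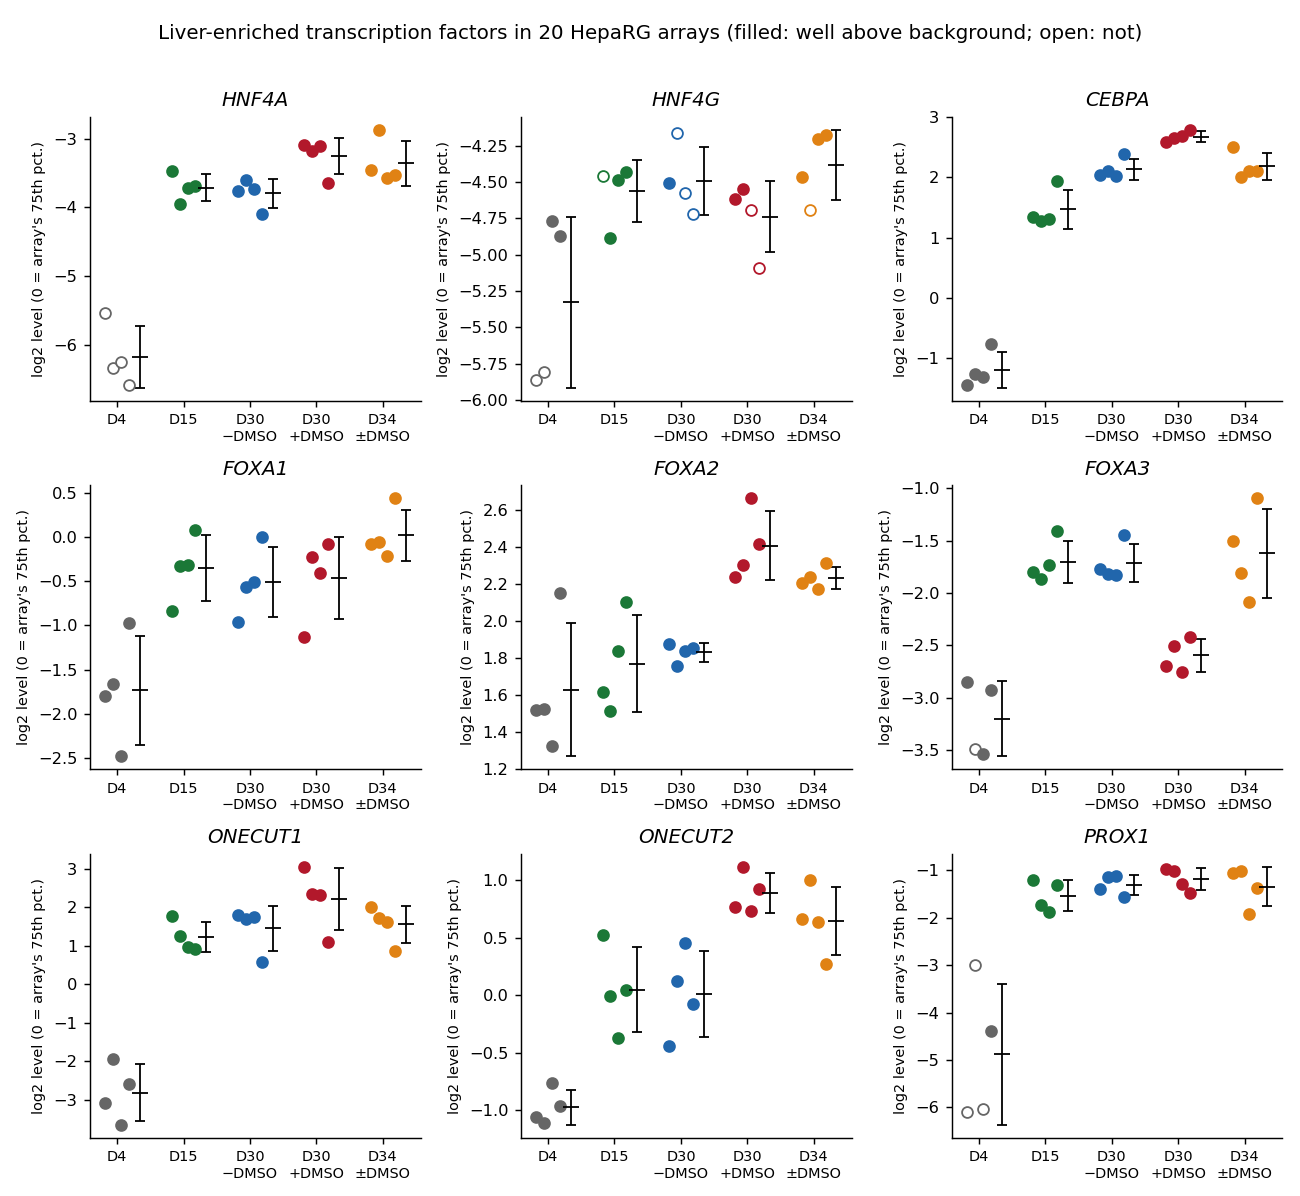
Log2 level of the 9 members (HNF4G by its brighter probe) on each of the 20 arrays (0 is the array's 75th percentile; each panel has its own axis), with replicates 1 to 4 from left to right and the mean ± SD of 4 arrays beside them. HNF4A is open, that is not well above background, on the 4 arrays of D4 only, while FOXA3 is low again on the 4 D30 + DMSO arrays.

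The HNF4A probe gave scaled signals of 8.01, 4.63, 4.92 and 3.87 in replicates 1 to 4 of D4, none of them well above background. At D15 they were 33.4, 23.9, 28.2 and 28.7. Every D15 array was thus above every D4 array. The measured log2 difference was 2.46 (SE 0.21, limma adjusted p = 7.34e-08), and it rests on these dim D4 signals. Set against the lowest signals called above background on the D4 arrays, the rise was 2.24-fold, a bound that the p does not test. The bound is not a strict limit, since FOXA3 at 33.1 was not well above background on D4 replicate 2 either. The HNF4A probe passed the filter through its later conditions alone, as did the probes of FOXA3 and PROX1. The signals were 27.5, 30.7, 27.9 and 21.8 in D30 − DMSO, 43.6, 41.1, 43.3 and 29.7 in D30 + DMSO, and 33.8, 50.7, 31.2 and 32.2 in D34 ± DMSO. These 3 later conditions all overlapped one another except D34 ± DMSO and D30 − DMSO. By mean level the order was D30 + DMSO, D34 ± DMSO, D15, D30 − DMSO and D4, and no pair of the upper 4 differed at an adjusted p under 0.05 in the fit without a block. The D30 + DMSO to D30 − DMSO difference was 0.54 on the log2 scale, 0.62 and 0.72 within slides 3 and 4, and 0.75 with the slide as a block (adjusted p = 0.0043), still under 2-fold. With limma's normexp correction, which lifts dim probes towards a common offset, the D4 to D15 difference was 0.56 on the log2 scale and did not pass.

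HNF4G, the second HNF4 gene, encodes a paralogue found mainly in gut and kidney. Its brighter probe was well above background on 11 of the 20 arrays, 2 in D4, 3 in D15, 1 in D30 − DMSO, 2 in D30 + DMSO and 3 in D34 ± DMSO, and its other probe on 1. Scaled signals of the brighter probe ran from 6.38 to 13.6 in D4 and from 10.9 to 20.7 in the other 4 conditions. With no filter on dim probes the D15 to D4 difference of this probe was 0.76 on the log2 scale (SE 0.24, adjusted p = 0.040), short of both limits, so no change of HNF4G was called.

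CEBPA rose at D15 and had its highest mean with DMSO. Its scaled signals were 137, 154, 149 and 217 in the replicates of D4 and 942, 901, 916 and 1424 in those of D15. In D30 − DMSO they were 1517, 1593, 1504 and 1944, above every D15 array. With DMSO they reached 2217, 2341, 2387 and 2566, above every D30 − DMSO array, and after its removal they were 2097, 1494, 1593 and 1606, below every D30 + DMSO array. The D4 to D15 rise was 2.67 on the log2 scale (SE 0.17, adjusted p = 2.25e-09). The later steps were each under 2-fold and none passed, with log2 differences of 0.67 from D15 to D30 − DMSO (SE 0.17, adjusted p = 0.468), 0.54 between D30 + DMSO and D30 − DMSO (SE 0.17, adjusted p = 0.034) and -0.50 between D34 ± DMSO and D30 + DMSO (SE 0.17, adjusted p = 0.047). Taken over the whole second phase, D30 + DMSO against D15, the rise was 1.21 (SE 0.17, adjusted p = 4.78e-05), and CEBPA was the 1 member called there, where 6.49% of all genes were.

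The FOXA genes, whose products bind the same forkhead motif, did not move alike. FOXA1 gave 106, 117, 66.5 and 188 in the replicates of D4 and 208, 295, 298 and 391 at D15, a log2 difference of 1.38 (SE 0.30, adjusted p = 0.0018). It stayed between 169 and 502 afterwards, and no pair of the 4 later conditions passed the test. The calls of FOXA1 and ONECUT2 depended on which arrays were fitted. Both were lost in a fit of the 8 arrays compared alone (adjusted p = 0.014 and 0.0067), with slides 1 to 3 only (adjusted p = 0.0059 and 0.0054) and without D4 replicate 1 (adjusted p = 0.0062 for FOXA1, and a change just under 2-fold for ONECUT2).

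FOXA2, the earliest endodermal member of the family, was already bright in progenitors. Its scaled signals were 1062, 1067, 930 and 1646 in D4 and 1140, 1060, 1329 and 1593 in D15. Those of D30 − DMSO lay within 1256 and 1362. The 4 arrays of D30 + DMSO, at 1749, 1833, 2348 and 1982, were all above the arrays of D30 − DMSO. D34 ± DMSO followed at 1710, 1752, 1669 and 1845. The D30 + DMSO to D30 − DMSO difference was 0.57 on the log2 scale (SE 0.16, adjusted p = 0.019), below 2-fold and not called. Over all 5 conditions the range of the FOXA2 means was 1.71-fold, the smallest among the 8 members.

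FOXA3, whose product acts on glucose genes of the fasting liver, was the 1 member lower with DMSO. It gave 51.3, 33.1, 32.0 and 48.8 in D4, with replicate 2 not well above background, and 107, 102, 112 and 140 at D15. D30 − DMSO stayed at 109, 105, 105 and 136. The 4 arrays with DMSO were at 57.1, 65.4, 55.0 and 69.2, below every D15 and D30 − DMSO array and above every D4 array. After removal the signals were 131, 106, 87.5 and 174, above every D30 + DMSO array. The D4 to D15 rise, in log2 units, was 1.50 (SE 0.20, adjusted p = 1.59e-05). It was 0.85 and not called with normexp, and with the methods' t-test it missed the limit on p (adjusted p = 0.0056). Between D30 + DMSO and D30 − DMSO the difference was -0.88 (SE 0.20, adjusted p = 0.0043), and between D34 ± DMSO and D30 + DMSO it was 0.97 (SE 0.20, adjusted p = 0.0016). Both met the limit on p and neither the 2-fold limit, so neither was called, at 1.84-fold lower with DMSO and 1.97-fold higher after removal. D34 ± DMSO and D30 − DMSO differed by 0.09 (SE 0.20, adjusted p = 0.960). Within slides 3 and 4, the 2 slides that hold both groups, D30 + DMSO was lower by -0.84 and -1.14 on the log2 scale, and D34 ± DMSO was higher than D30 + DMSO by 0.81 and 1.49. With the slide as a block the rise after removal was 1.09 (adjusted p = 0.00016) and passed. With normexp both differences were smaller, at -0.45 with DMSO (adjusted p = 0.021) and 0.51 after removal (adjusted p = 0.0077), and with slides 1 to 3 only they were -0.80 (adjusted p = 0.034) and 0.81 (adjusted p = 0.028).

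**Figure D2:**
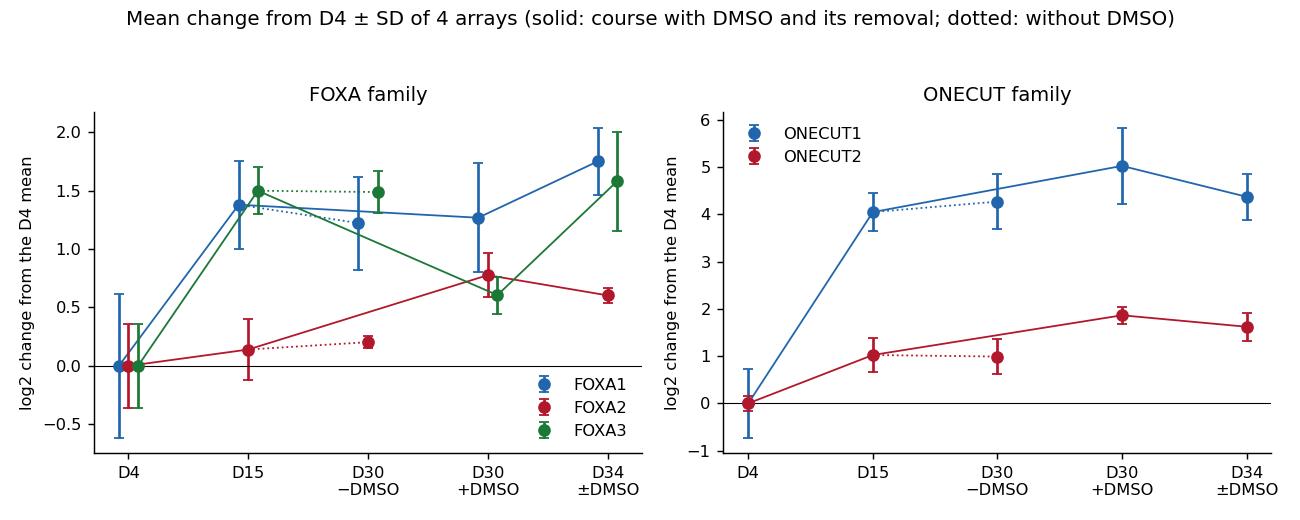
Mean change of the FOXA genes (left) and the ONECUT genes (right) from their own D4 mean, on the log2 scale, with the SD of 4 arrays as bars. With DMSO FOXA3 lies 0.61 above D4 against 1.27 for FOXA1 and 0.78 for FOXA2, and ONECUT1 lies about 4 to 5 above D4 where ONECUT2 lies about 1 to 2 above it.

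Whether the family members changed by unequal amounts was tested on their ratios within each array, a test added after the values had been seen. The exact two-sided permutation test of 4 against 4 arrays cannot go below p = 0.0286, and 12 ratios were tested, so the smallest adjusted p was 0.049. From D4 to D15 the log2 ratio of FOXA2 to FOXA1 changed by -1.24 and that of FOXA2 to FOXA3 by -1.36, both at exact p = 0.0286. The ratio of FOXA1 to FOXA3 changed by -0.12 (exact p = 0.686). With DMSO the ratio of FOXA2 to FOXA3 rose by 1.46 and that of FOXA1 to FOXA3 by 0.93, both at exact p = 0.0286. After removal the log2 ratios of FOXA2 to FOXA3 and of FOXA2 to FOXA1 changed by -1.15 and -0.66, at the same exact p. All 7 ratio changes at this p had an adjusted p of 0.049, the seventh being that of the ONECUT genes at D15.

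The ONECUT genes both rose with commitment. ONECUT1 gave 43.9, 97.3, 29.5 and 61.8 in the replicates of D4 and 1279, 891, 728 and 699 in those of D15. No D4 array came near a D15 array, and the rise of 4.05 on the log2 scale (SE 0.41, adjusted p = 4.83e-07) was the largest of the members. The signals were 1291, 1198, 1249 and 556 in D30 − DMSO, 3088, 1897, 1854 and 803 in D30 + DMSO, and 1504, 1228, 1140 and 677 in D34 ± DMSO. In each of these conditions replicate 4, on slide 4, was the lowest array, and the 3 conditions overlapped. The D30 + DMSO to D30 − DMSO difference was 0.76 (SE 0.41, adjusted p = 0.245), and 0.91 and 1.13 within the 2 slides that hold both groups. Each D30 + DMSO array was above the D30 − DMSO array of the same replicate number, but whether equal numbers mark paired arrays was not settled. Against D4 the D30 + DMSO arrays were 32.5-fold higher, in a comparison where 18.3% of all genes and 6 of the 8 members were called.

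ONECUT2 gave 178, 171, 218 and 191 at D4 and 535, 369, 287 and 383 at D15, a rise of 1.02 on the log2 scale (SE 0.20, adjusted p = 0.00095) that sits at the 2-fold limit. D30 − DMSO was at 273, 406, 508 and 351. With DMSO it reached 634, 806, 618 and 704, above every D30 − DMSO array, and after removal 589, 745, 577 and 449. The difference with DMSO was 0.87 (SE 0.20, adjusted p = 0.00503), which missed both limits narrowly. With the slide as a block it was 1.04 (adjusted p = 0.00073) and passed, and the same held without D30 − DMSO replicate 3, at 1.02 (adjusted p = 0.0024). The log2 ratio of ONECUT1 to ONECUT2 rose by 3.02 at D15 (exact p = 0.0286), and changed by -0.12 with DMSO (exact p = 0.800).

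PROX1 gave 5.39, 46.7, 5.66 and 17.8 in the replicates of D4, where 1 of the 4 arrays was well above background, and 160, 111, 101 and 150 at D15. Every later array lay between 97.8 and 188, so PROX1 went up once and then stayed within a narrow band. The rise at D15 was 3.34 on the log2 scale (SE 0.47, adjusted p = 2.67e-05), and the 4 conditions from D15 on differed from one another by no more than 0.34 in their means, with no adjusted p under 0.05. The size of this rise rests on the dim D4 arrays, whose log2 levels had an SD of 1.49. It was 3.97 without D4 replicate 2 and 1.51 with normexp, and passed in both. With the methods' t-test the rise did not pass (adjusted p = 0.032).

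Over all 20 arrays the members' log2 levels correlated with one another with r between 0.22 (FOXA2 with FOXA3) and 0.94 (HNF4A with ONECUT1), for 28 pairs of genes. These values include the step from D4 to the later conditions. Once each condition's mean was taken off, r ranged from -0.50 (HNF4A with CEBPA) to 0.68 (FOXA1 with FOXA2), and 14 of the 28 were below 0. Arrays share slides, and no p is attached. For the 3 members that changed over the 5 conditions, the genes with the most similar pattern over the 20 arrays were DPYS (r = 0.98) and BDH1 (r = 0.97) for HNF4A, LEAP2 and SLCO2B1 (both r = 0.99) for ONECUT1, and SERPIND1 and ESPN (both r = 0.99) for CEBPA. DPYS degrades pyrimidines, BDH1 makes the ketone body 3-hydroxybutyrate, LEAP2 is a liver-secreted peptide, SLCO2B1 an uptake transporter, and SERPIND1 encodes heparin cofactor II of plasma, while ESPN bundles actin in microvilli.

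Partner factors, a list of 24 further transcription factors and coregulators of the hepatocyte network, were followed beside the members. All 24 were tested, and 9 rose from D4 to D15 and none fell. These were the small heterodimer partner NR0B2 (3.76 on the log2 scale), the fasting-induced factor CREB3L3 (3.44), the PAR bZIP factors HLF (3.23), TEF (1.56) and DBP (1.03), the carbohydrate sensor MLXIPL (2.68), NR5A2 (2.16), a nuclear receptor of bile acid synthesis, the unfolded protein response factor XBP1 (1.70) and the homeobox gene HHEX (1.65). The list's median difference was 0.71, against 1.98 for the 8 members, or 1.44 with HNF4A at its bound, and 0.02 for all genes tested. The other C/EBP genes did not follow CEBPA, with log2 differences of 0.03 for CEBPB (adjusted p = 0.923), 0.08 for CEBPD (adjusted p = 0.907) and 0.47 for CEBPG (adjusted p = 0.020). GATA4, GATA6 and ONECUT3 were between 0.69 and 0.79 and were not called.

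Known targets of the members mostly rose as well. Of 24 genes listed for promoters bound by HNF4α, C/EBPα, FOXA or HNF6, all were tested and 21 rose from D4 to D15, with a list median of 4.17 on the log2 scale, or 3.81 with the 4 genes that were above background on no D4 array at their bound. Glycogen synthase GYS2 rose by 5.26, transthyretin (TTR) by 4.18 and albumin (ALB) by 2.50. Of the genes at a bound, reckoned as for HNF4A, G6PC1, the last enzyme of gluconeogenesis, was 13.1-fold higher, and the urea cycle gene OTC 15.1-fold. The 3 that were not called were AFP at 0.18 (adjusted p = 0.577), IGFBP1 at 0.44 (adjusted p = 0.377) and PCK1, which was above background on no array of either condition. Proliferation genes moved the other way, and all 10 on their list (among them MKI67, CDK1 and TOP2A) fell, with a median of -2.73. Their summed scaled signal was 13153 to 18107 on the D4 arrays and 2197 to 4668 at D15. Such a sum follows the brightest probes of a list and does not measure the share of a cell type. Summed biliary and progenitor markers, 8 tested genes, were at 117730 to 185930 in D4 and 87573 to 120220 in D15, where SPP1 was called higher and NCAM1 and ITGB4 lower. The part of either group in the members' rise was not tested.

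**Figure D3:**
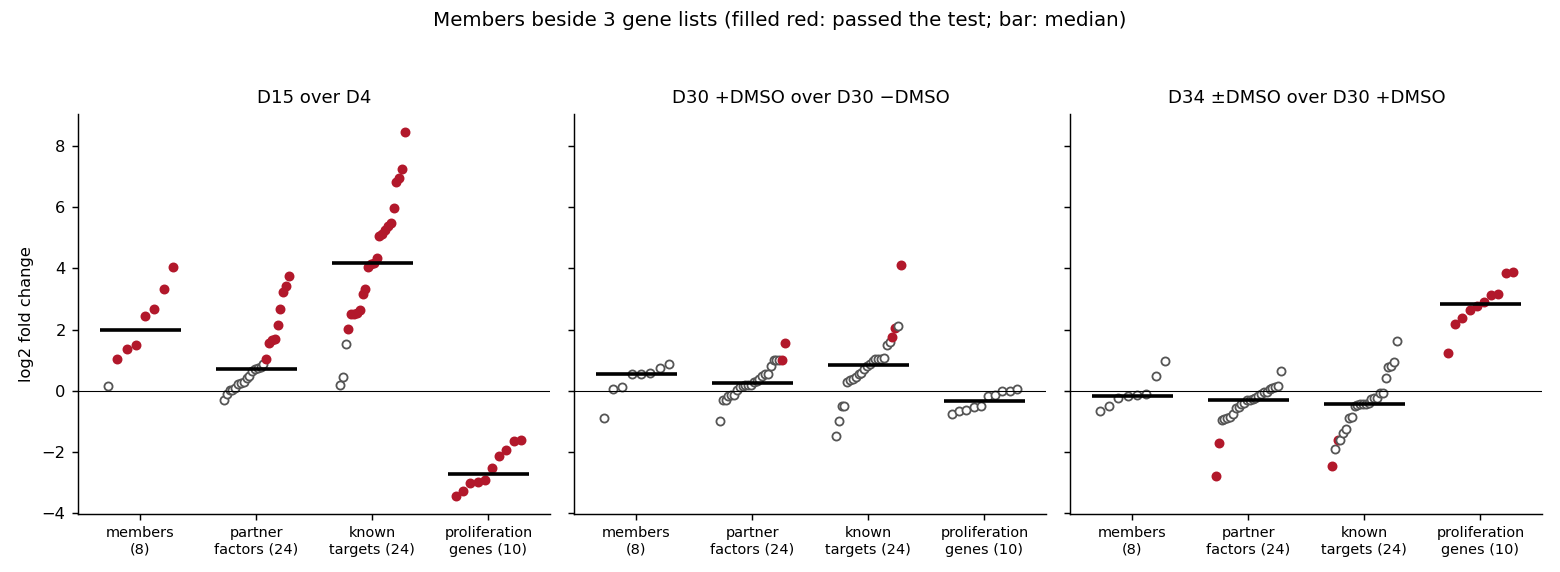
Log2 differences of the 8 members, the 24 partner factors, the 24 known targets and the 10 proliferation genes in 3 comparisons, 1 point per gene sorted by size, filled where the gene was called, with the median as a bar (measured differences, also for genes below background at D4). At D15 the members' median of 1.98 lies between those of the partner factors (0.71) and the targets (4.17), and with DMSO no member is filled.

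During the next 2 weeks without DMSO, from D15 to D30 − DMSO, nothing in the network was called. Limma and the methods' t-test called 0 of the 8 members, and 1 of them, CEBPA, had an unadjusted p under 0.05. Limma's calls over all genes were 0.0136%, that is 3 genes. The members' differences ran from -0.16 to 0.67 on the log2 scale with a median of 0.03. By limma and by the methods' t-test none of the 24 partner factors and none of the 24 targets was called, although 3 and 7 of them had an unadjusted p under 0.05. CEBPA was the 1 member whose groups did not overlap, where 2.17% of all genes did not.

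With DMSO against the same day without it, limma called no member and 5.85% of all genes. The methods' t-test called no member either, but it also called 0 of the 24 partner factors and 1 of the 24 targets. Its share over all genes is not given, so its counts of members are not read as a result about them in any comparison. Limma's unadjusted p-values were under 0.05 for 5 members and adjusted ones for 4, FOXA3 lower and ONECUT2, FOXA2 and CEBPA higher. The share of all genes under 0.05 is not given for this or the other comparisons, so such counts do not set the members apart. In those 4 members the groups did not overlap, as in 24.5% of all genes. HNF4A was at 0.54 (SE 0.21, adjusted p = 0.093), and FOXA1 and PROX1 were at 0.05 and 0.12 with adjusted p-values above 0.9. The members' median was 0.54 against 0.04 over all genes tested. Around the members, 2 of 24 partner factors rose, NR0B2 by 1.55 (SE 0.33, adjusted p = 0.0019) and HHEX by 1.02 (adjusted p = 0.0021), and PPARGC1A, the coactivator of gluconeogenesis genes, was at -0.98 (adjusted p = 0.00022), just inside 2-fold. Of the 24 targets 3 rose. PCK1 was higher by 4.11 (adjusted p = 0.00026), with 1 of 4 D30 − DMSO arrays above background, APOC3 by 2.06 (adjusted p = 0.00072) and G6PC1 by 1.75 (adjusted p = 0.0016). Another 8 targets had an adjusted p under 0.05 without a call. The partner factor count is fragile, at 0 in a fit of the arrays compared alone and at 4 with the slide as a block, and the target count was 6 with normexp.

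Biliary and progenitor markers moved in the same comparison. Of 12 listed, 8 were tested, GGT1 had no probe mapped to its symbol, and EPCAM, CFTR and PROM1 did not pass the filter. On the log2 scale SPP1 (osteopontin) changed by -1.78, the integrin gene ITGB4 by -2.0 and SOX9, a duct factor, by 1.30, all called, while the duct keratins KRT7 and KRT19 were at 0.11 and -0.23 (adjusted p = 0.740 and 0.519). The other tested markers, SOX4, CD24 and NCAM1, were not called. The median difference of the 8 was -0.23, and 2 of them lay above 0. The summed scaled signal of the 8, which hides these opposite directions, was 87429 to 90932 in D30 − DMSO and 65369 to 96212 in D30 + DMSO. Hepatocyte markers summed to 925330 to 986600 and to 1186500 to 1992200. The part of these markers in the members' differences was not tested.

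**Figure D4:**
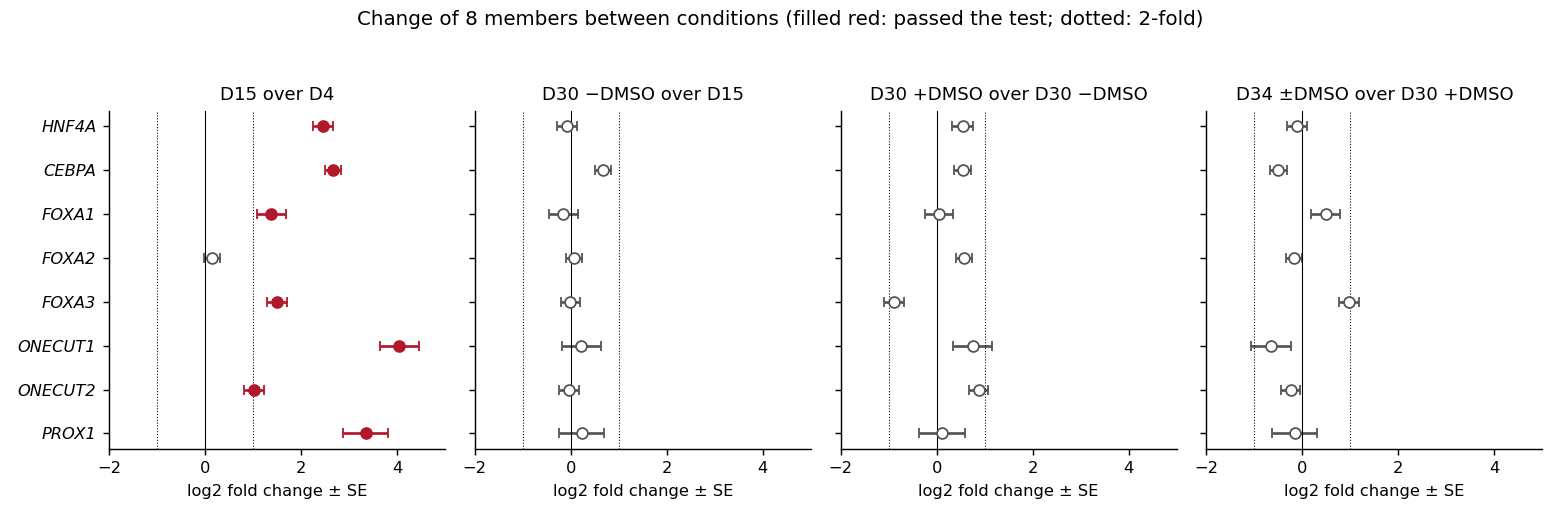
Log2 fold change of 8 members in 4 successive comparisons, with the standard error of limma's fit as bars, filled where the gene was called, and dotted lines at a 2-fold change. At D15 7 members are filled, while with DMSO FOXA3 lies at -0.88 and ONECUT2 at 0.87, inside the 2-fold lines.

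Withdrawal of DMSO for 4 days brought no call among the 8 members by limma, which called 7.04% of all genes. The methods' t-test called no member either, nor any partner factor or target. By limma FOXA3 and CEBPA had unadjusted and adjusted p-values under 0.05, in opposite directions. They were the members whose groups did not overlap (22.8% of all genes). The other 6 members had log2 differences between -0.65 (ONECUT1, SE 0.41, adjusted p = 0.315) and 0.48 (FOXA1, SE 0.30, adjusted p = 0.304). Of the partner factors 2 fell, NR0B2 with a log2 difference of -2.78 (SE 0.32, adjusted p = 4.27e-06) and TEF with -1.73 (adjusted p = 0.0025), and GATA6 was at -0.85 (adjusted p = 0.00018). Of the targets 2 fell, G6PC1 at -2.48 (adjusted p = 4.48e-05) and APOC3 at -1.61 (adjusted p = 0.0048). With the slide as a block 1 target was called, and 1 member, FOXA3. PCK1 was at -1.25 (adjusted p = 0.233). At the same time all 10 proliferation genes rose, with a median of 2.82 on the log2 scale, and their summed signal went from 2071 to 3555 in D30 + DMSO to 10543 to 18724 in D34 ± DMSO. The biliary and progenitor sum was 70047 to 105770 in D34 ± DMSO, with SPP1 and ITGB4 called higher and SOX9 lower than in D30 + DMSO, and the part of both groups in the members' differences was not tested. None of the 10 was called between D34 ± DMSO and D4, with a median of 0.06. Of the members, 7 of the 8 were called higher in D34 ± DMSO than in D4 (5.70% of all genes were called higher and 8.53% in either direction). The exception, FOXA2, was at 0.60 (adjusted p = 0.011).

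D34 ± DMSO cells were last set against D30 − DMSO cells, which never saw DMSO. The methods' t-test called no member, nor any partner factor. Limma called no member and 1.51% of all genes. By limma 2 members had an unadjusted p under 0.05, ONECUT2 at 0.63 (SE 0.20, adjusted p = 0.097) and FOXA2 at 0.40 (SE 0.16, adjusted p = 0.232). HNF4A and FOXA2 did not overlap between the groups, with D34 ± DMSO higher in both, where 11.6% of all genes did not and 5.63% were higher. PPARGC1A was the 1 partner factor called by limma, lower by -1.15 (adjusted p = 0.00014). By limma and the methods' t-test none of the 24 targets was called, and 5 had an unadjusted p under 0.05.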

How the data were processed

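RNA of 20 HepaRG cultures was hybridised by the authors to Agilent 8x60K one-colour arrays, and Feature Extraction (10.7.3.1 per the labels, 10.7.1.1 per the file headers) gave the deposited intensity values used here, the processed signal, already background-subtracted. The deposited matrix holds the authors' log2 values, shifted to each array's 75th percentile and relative to a baseline of each probe. It served as an alternative.

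Spots flagged as outliers were left out, spots of a probe averaged, and each array scaled to a common 75th percentile, with a floor of 1 before log2. Probes were named through RefSeq transcript accessions (GRCh38.p14), which gave 24826 of 42405 probes a symbol. The brightest passing probe stood for a gene. Limma 3.58.1 (R 4.3.3) fitted the 5 condition means over all arrays and 22069 genes, with no covariate, and p-values were adjusted over all of them. The fit was tested on simulated data. The number of arrays limits the precision. Named genes are the members, the called genes of the partner and target lists with uncalled ones needed to account for a list, and the 2 most correlated genes of each member changed over the 5 conditions. Members and lists were chosen with earlier results of these data known. Alternatives were quantile normalization, normexp with an offset of 50, the deposited matrix, other filters on dim probes, a floor of 10, other probe rules, blocks for slide, session and replicate number, fits restricted to each comparison, plain tests as in the study's methods (the methods' t-test and analysis of variance), an adjusted p under 0.05, and leaving out each array. Slides 1 to 3 only, and the ratios within families, were added after the data had been seen. Python 3 tools drew the figures and searched the promoters.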

Additional observations from a re-analysis of the deposited data

Results flagged for a closer look

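Of 40 sets of 4 replicates, the 8 tested members in 5 conditions, 5 held an array set apart from the other 3 by Dixon's criterion, where chance gives about 1 in 20. The log2 level of HNF4A was -3.65 in D30 + DMSO replicate 4, below the -3.18 to -3.09 of the others, and -2.87 in D34 ± DMSO replicate 2, above the -3.57 to -3.46 of the others. FOXA3 was at -1.44 in D30 − DMSO replicate 4 against -1.82 to -1.77. ONECUT1 was at 0.58 in D30 − DMSO replicate 4 against 1.69 to 1.80. CEBPA was at 1.94 in D15 replicate 4 against 1.28 to 1.34. These 5 values fall on 4 arrays, 3 of which are replicate 4 and lie on slide 4.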

How the results depend on the processing

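The 7 members called at D15 numbered 4 with normexp and 4 when probes had to be above background on all arrays (5 members were then tested). They numbered 3 with the methods' t-test, where FOXA1, FOXA3, ONECUT2 and PROX1 lost their calls, and 5 to 7 without each array in turn. FOXA1 lost its call without D4 replicate 1 or 3 or D15 replicate 2, 3 or 4, and ONECUT2 without D4 replicate 1 or 2 or D15 replicate 1. Members changed over the 5 conditions were 3, or 5 at a Bonferroni p under 0.05, 1 with slides 1 to 3 only, and 2 to 4 without each array (2 without D4 replicate 1, 4 without D4 replicate 2). With the slide as a block 1 member was called with DMSO and 1 after its removal, with the session as a block 1 after removal, and without each array 0 to 1 in both; no setting called a member from D15 to D30 − DMSO or between D34 ± DMSO and D30 − DMSO.
For partner factors with DMSO (2 called), the count was 1 with quantile normalization, normexp or probes above background on all arrays, 0 with the arrays compared alone, the methods' t-test or slides 1 to 3 only, 4 with the slide as a block and 0 to 3 without each array (0 without D30 − DMSO replicate 4 or D30 + DMSO replicate 3). After removal (2) it was 1 without the filter, with probes above background on all arrays, with the arrays compared alone or with slides 1 to 3 only, 0 with the methods' t-test and 1 to 2 without each array. Between D34 ± DMSO and D30 − DMSO (1) it was 0 with the methods' t-test or slides 1 to 3 only and 2 at an adjusted p under 0.05. At D15 it was 7 to 9 without each array.
For targets with DMSO (3) it was 6 with normexp or a floor of 10, 1 with probes above background on all arrays or the methods' t-test, 9 at an adjusted p under 0.05 and 2 to 4 without each array. After removal (2) it was 4 with normexp or a floor of 10, 6 at an adjusted p under 0.05, 1 without the filter, with probes above background on all arrays, the slide as a block or slides 1 to 3 only, 0 with the methods' t-test and 1 to 4 without each array. At D15 (21) it was 10 of 12 tested with probes above background on all arrays and 21 without each array. From D15 to D30 − DMSO (0) it was 1 with normexp or slides 1 to 3 only, 2 at an adjusted p under 0.05 and 0 to 2 without each array, and between D34 ± DMSO and D30 − DMSO (0) it was 1 at an adjusted p under 0.05 and 0 to 1 without each array. The cause was not tested, beyond the fewer genes or arrays of a setting.
No called change of a member turned its direction. Whether equal replicate numbers mark paired arrays was not settled. Correlations of deviations between same-numbered arrays ran from -0.31 to 0.80 over the comparisons. At most 3 of 4 such pairs were over 0.1, and 1 or 2 of 4 correlated best with their own number. Replicate 4 of every condition lies on slide 4, so number and slide cannot be told apart there. The replicate block moved the calls over all genes from 2106 to 2327 at D15, from 1292 to 1513 with DMSO and from 1554 to 1763 after removal, with 7, 0 and 0 members called. Calls over all genes with normexp were 1395, 664 and 857 against 2106, 1292 and 1554, with 58.4%, 39.0% and 69.2% of them higher. Of the ratio changes within families, 12 of 12 were computed under 25 other settings; the 7 at the smallest p kept their direction in all 25, but with normexp, or without any 1 array of D30 − DMSO or D34 ± DMSO, none had an adjusted p under 0.05. With normexp the change of FOXA1 to FOXA3 with DMSO was 0.49 with overlapping groups (exact p = 0.0857), and that of FOXA2 to FOXA1 after removal had exact p = 0.0857 without any 1 of the 4 D34 ± DMSO arrays. With slides 1 to 3 only the exact test cannot go below p = 0.1. Signal over background limits HNF4A, FOXA3 and PROX1 at D4, and HNF4G in every condition.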
